A study of Mus musculus with 2 samples.

Results

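The genes of 8 enzymes of haem synthesis, Alas2, Alas1, Alad, Uros, Urod, Cpox, Ppox and Fech, were followed through 2 libraries of total RNA. They were taken as a list by symbol, whatever their values, and are 8 of the 43346 genes in the tables. The cells were G1E-ER4, a mouse erythroid line from strain C57BL/6J, labelled male, which has no Gata1 of its own and carries a GATA1 fused to the hormone-binding part of the oestrogen receptor. Both cultures, biological replicates 1 and 2, were given 17beta-estradiol at 10 nM and harvested after 24 h. ScriptSeq libraries were prepared from 100 ng of RNA depleted of ribosomal RNA, with a labelled size range of 200 to 1000. Untreated cells were not analysed here, so the data give levels, transcript forms and the spread between replicates, and no response to the hormone. G1E-ER4 is a clonal line grown in culture, so the replicates are cultures and not different animals.

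Haem is built by a chain of enzymes that starts and ends in the mitochondrion and runs through the cytosol in between. The first enzyme, aminolevulinate synthase, joins glycine to succinyl-CoA and sets the pace of the pathway; it comes in an erythroid form encoded by Alas2 and a housekeeping form encoded by Alas1. Red cell precursors make haem in bulk for haemoglobin, and inherited faults of these enzymes cause the porphyrias and, for ALAS2 in humans, a sideroblastic anaemia.

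The libraries held 62080996 expected counts in replicate 1 and 41051158 in replicate 2, of which the 8 genes took 0.199% and 0.220%. All 10 erythroid markers looked at reached 1 TPM, a level corrected for transcript length and library size, in both libraries. Gata1 is 1 of the 10, at 60.05 TPM in replicate 1 and 73.23 TPM in replicate 2. Since the line carries GATA1 as an introduced fusion, that value is not a level of its own gene. The summed level of the 10 was 2202 TPM in replicate 1 and 3042 TPM in replicate 2. No liver, myeloid or lymphoid marker reached 1 TPM in both, of 4, 6 and 4 measured. The liver markers Alb, Apoa1 and Ttr had no counts. Of 4 megakaryocyte markers, Itga2b and Gp1ba reached it, and the 4 summed to 4.5 TPM in replicate 1 and 4.06 TPM in replicate 2. In these bulk libraries a smaller share of cells with a transcript and less of it per cell cannot be told apart.

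All 8 genes were at 1 TPM or more in both libraries, as were 36.3% of nuclear protein-coding genes, and 7 of 8 (all but Alas1) were at 10 TPM or more, against 12.1% of those genes. The median of the 8 was 49.05 TPM in replicate 1 and 51.7 TPM in replicate 2. The 7781 nuclear protein-coding genes that reached 1 TPM in both had a median of 6.43 TPM. Nuclear protein-coding genes hold only a small part of the TPM of these libraries, so deposited levels look low: multiplying by 7.09 in replicate 1 and by 6.95 in replicate 2 puts them on a scale where nuclear protein-coding genes make up the whole.

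**Figure D1:**
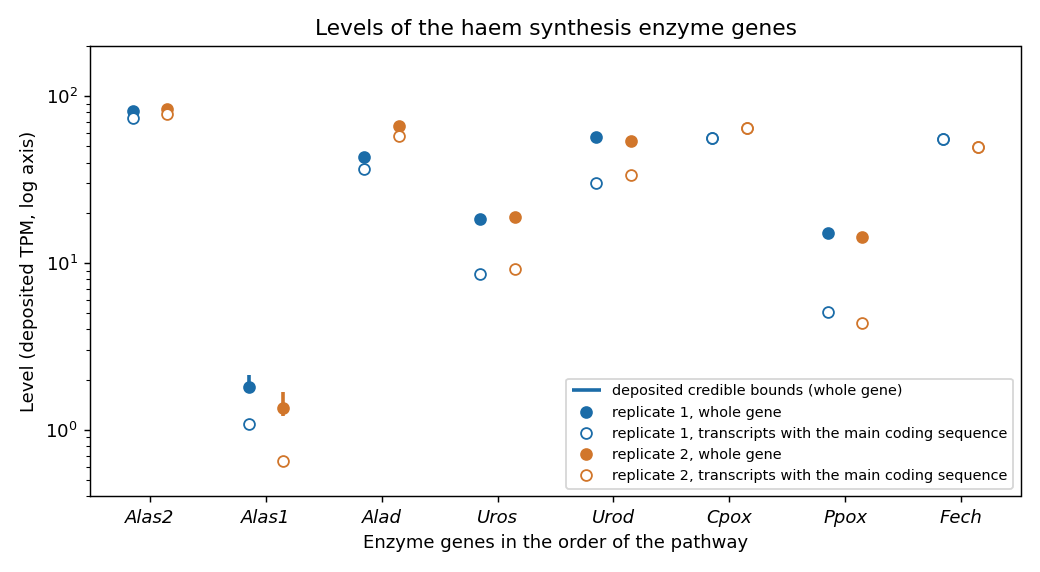
Deposited TPM on a log axis for the 8 genes in pathway order, with replicate 1 left of replicate 2. Filled points are whole genes with their deposited credible bounds, and open points are the transcripts that carry at least 90% of the longest coding sequence; they coincide for Cpox and Fech, Alas1 lies far below the other 7, and the open points of Uros and Ppox lie well below the filled ones.

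At the head of the pathway the erythroid enzyme gene was far above the housekeeping one. Alas2 (ENSMUSG00000025270.9, GRCm38 chrX:150547375-150570638, plus strand) was at 81.24 TPM in replicate 1 and 84.24 TPM in replicate 2, on 27983 and 20195 counts. This was the highest level of the 8 genes in both libraries, and it exceeded 96.7% of the nuclear protein-coding genes at 1 TPM. Alas1 (ENSMUSG00000032786.10, chr9:106233455-106248654, minus strand) was at 1.81 and 1.35 TPM in replicates 1 and 2, on 696 and 314 counts. It exceeded only 6.55% of those genes. The ratio of Alas2 to Alas1 was 44.9-fold in replicate 1 and 62.4-fold in replicate 2.

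Most of the Alas2 counts belonged to 2 coding forms whose annotated starts lie 84 bases apart. The longer coding form of Alas2 (ENSMUST00000066337.8) held 75.36% and 74.76% of the TPM of the gene in replicates 1 and 2. A shorter coding form (ENSMUST00000112715.1) held 16.1% and 18.4% (17.2 ± 1.63%, SD, n = 2). Its coding sequence is 1716 bases against 1761, because exon 3 begins 45 bases, or 15 codons, later. The exon is shown since those codons are the coding difference between the 2 main forms of the most abundant enzyme gene. The capitals mark the 45 bases that the shorter form lacks, at chrX:150552959-150553081, plus strand, from the GENCODE M21 transcript on GRCm38.
Alas2 exon 3: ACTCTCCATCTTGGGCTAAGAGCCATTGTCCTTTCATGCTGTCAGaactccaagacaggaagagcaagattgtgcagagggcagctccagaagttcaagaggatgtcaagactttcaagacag
A retained-intron form of Alas2 (ENSMUST00000134670.1) held 8.08% and 6.76% of TPM, yet only 1.21 ± 0.206% of the counts (SD, n = 2). The whole of Alas2 lies inside the span of Apex2 on the opposite strand, with 311 shared exon bases; Apex2 was at 1.93 and 2.01 TPM, far below Alas2.

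Alas1 was split among several starts. The coding form that begins farthest upstream (ENSMUST00000141118.3) held 39.15% of TPM in replicate 1 and 25.76% in replicate 2, and 388 and 131 counts. Its first exon shares 465 bases with the antisense gene 4930500F10Rik, at 0.28 and 0.29 TPM; use of strand in the counting is not given in the sources used here. A coding form that begins 798 bases downstream (ENSMUST00000074082.8) held 19.5% and 20.37%. A retained-intron form (ENSMUST00000123601.1) held 18.81% and 27.35%, and a noncoding form (ENSMUST00000134053.3) held 15.35% and 17.16%. Coding forms made up 53.8 ± 8.16% of the TPM of Alas1 (SD, n = 2).

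In the cytosol, Alad and Urod were several times above Uros. Alad (ENSMUSG00000028393.6, chr4:62509169-62519918, minus strand), whose enzyme condenses aminolevulinate to porphobilinogen, was at 43.09 TPM in replicate 1 and 66.56 TPM in replicate 2. Its deposited bounds, 42.0 to 43.7 TPM and 64.7 to 67.4 TPM, did not overlap, and its coefficient of variation of 30.3% was the highest of the 8 genes. Alad-201 held 84.14% and 86.27% of its TPM. Alad-203, a noncoding form that keeps an intron of 600 bases, held 15.31% and 13.44% on 2121 and 1973 counts. The enzyme that follows Alad in the chain was not analysed here.

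Uros (ENSMUSG00000030979.8, chr7:133686243-133710072, minus strand) encodes the synthase that closes the porphyrin ring. It was at 18.48 and 18.82 TPM in replicates 1 and 2, and its bounds overlapped. No form of Uros held more than 32.75% of its TPM. Uros-208 led with 32.75% and 29.1%, but it is short, with an annotated coding sequence of 91 bases, and held 8.87 ± 0.881% of the counts (SD, n = 2). By counts Uros-206, a retained-intron form, led in replicate 1 at 24.4%, where Uros-201 held 18.7%. Uros-201 led in replicate 2 at 28.05%, where Uros-206 held 18.1%. The 3 forms with the full coding sequence of 265 codons held 47.8 ± 1.51% of TPM, or 8.63 and 9.19 TPM. The first exon of Uros-208 lies within the span of Bccip on the opposite strand (19.58 and 17.17 TPM) and shares 0 exon bases with it.

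Urod (ENSMUSG00000028684.10, chr4:116989965-116994413, minus strand), which makes coproporphyrinogen, was at 56.56 TPM in replicate 1 and 53.91 TPM in replicate 2. Urod-201 held 53.08% and 62.15% of TPM, and 79.4 ± 2.45% of counts (SD, n = 2). It is the only form in the tables with at least 90% of the longest coding sequence, and stood at 30.02 and 33.5 TPM. Another 36.2 ± 3.91% of TPM fell on 7 forms annotated as retained intron, led by Urod-205 (16.03% and 10.19%) and Urod-202 (12.22% and 12.71%). Urod-205 keeps 1 whole intron of Urod-201, of 94 bases, and Urod-202 and Urod-209 keep 0 whole introns. Introns carried in part were not counted. On counts these forms came to 19.5 ± 2.47%.

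Of the last 3 enzymes, all in the mitochondrion, Cpox and Fech were close to Urod and Ppox was much lower. Cpox (ENSMUSG00000022742.5, chr16:58670292-58717636, plus strand), the coproporphyrinogen oxidase, was at 56.13 TPM in replicate 1 and 64.04 TPM in replicate 2. Fech (ENSMUSG00000024588.8, chr18:64452914-64490251, minus strand), the ferrochelatase that inserts iron, was at 55.01 and 49.44 TPM. Bounds of neither gene overlapped between the libraries. Each has 1 transcript in the tables, where GENCODE M21 lists 6 for Cpox and 15 for Fech, so their forms could not be compared. The spans above are those of the M21 genes. The transcripts measured cover less, chr16:58670292-58680386 for Cpox and chr18:64457265-64489063 for Fech.

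Ppox (ENSMUSG00000062729.7, chr1:171275990-171281186, minus strand) encodes the oxidase that makes protoporphyrin. It was at 15.05 and 14.3 TPM in replicates 1 and 2, with overlapping bounds. Forms annotated as retained intron held 62.77% of its TPM in replicate 1 and 54.14% in replicate 2. The largest of them by TPM, Ppox-202 at 26.82% and 23.83%, is a short form that keeps 0 whole introns of Ppox-201. It begins within an intron of Ppox-201, 1359 bases from the first annotated start, and carries the rest of that intron. The annotated type is therefore not a measure of whole kept introns. Ppox-201, the form with the main coding sequence of 477 codons, held 33.57% and 30.58%, or 5.05 and 4.37 TPM. By counts, 52.6 ± 2.96% (SD, n = 2) fell on Ppox-207, which keeps 5 of the 12 introns of Ppox-201, or 1588 bases. Ppox-207 also runs on past the end of Ppox-201 into B4galt3, a gene of the opposite strand at 2.02 and 1.85 TPM, with which it shares 791 exon bases, 17.9% of its own. The part of reads from B4galt3 in the Ppox-207 value was not tested. Ppox-206, which keeps 2 of those introns and ends with Ppox-201, held 9.07% and 5.19% of TPM.

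**Figure D2:**
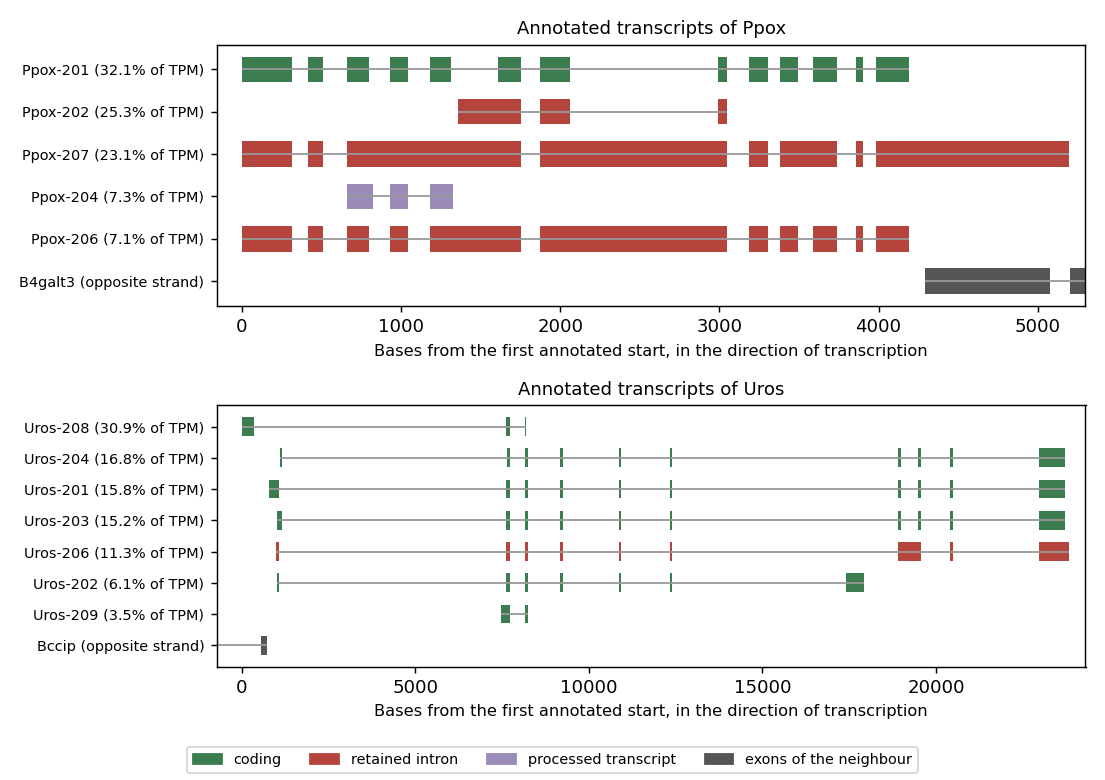
Exons (boxes) of the named transcripts of Ppox and Uros, against bases from the first annotated start; labels give the mean share of TPM over 2 libraries, and grey boxes are exons of the gene on the opposite strand. Ppox-207 keeps 5 introns and reaches into B4galt3, whereas Uros-208 begins upstream of all other Uros forms and ends early.

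Retained-intron shares were set against the 3485 nuclear protein-coding genes at 1 TPM that have such a transcript. Of the 5 members with one, Ppox was at 50% or more in both libraries, as were 5.14% of those genes, and Ppox and Urod were at 30% or more, as were 16.3%. The share of Ppox, 58.5 ± 6.10% (SD, n = 2), was higher than in 96.8% of the 3485 genes, and that of Urod higher than in 86.0%. Alas1 (28.02 ± 5.93%), Uros and Alas2 exceeded 78.7%, 49.0% and 36.5% of them. A leading transcript at 50% or more of TPM in both libraries was found in 3 of the 6 members with several transcripts (Alas2, Alad and Urod), against 66.9% of such genes.

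**Figure D3:**
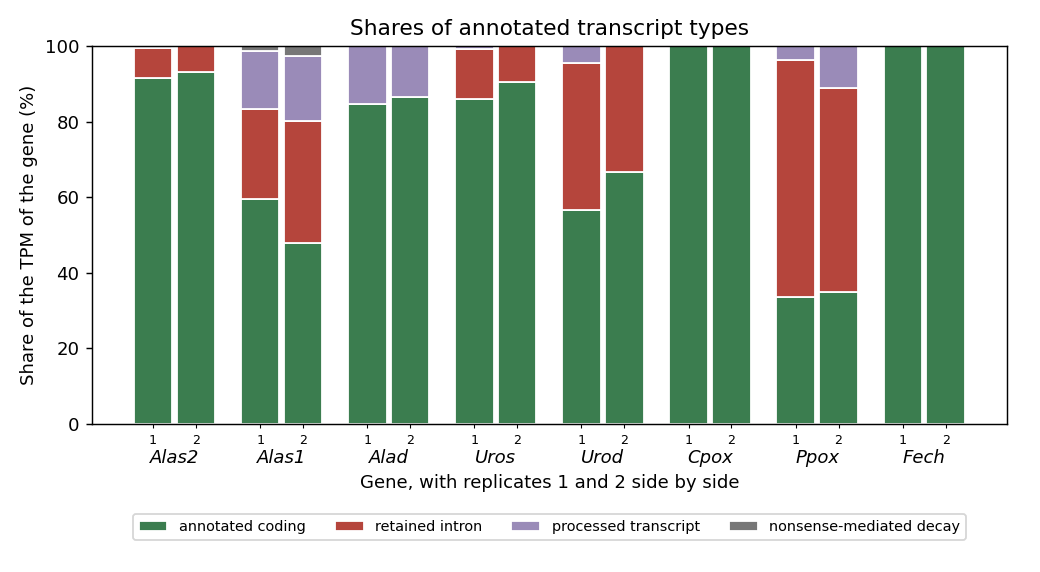
Share of the TPM of each gene by annotated transcript type, with replicate 1 left of replicate 2. Ppox has the largest retained-intron share (62.77% and 54.14%), and Cpox and Fech are at 100% coding because each has 1 transcript in the tables.

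**Figure D4:**
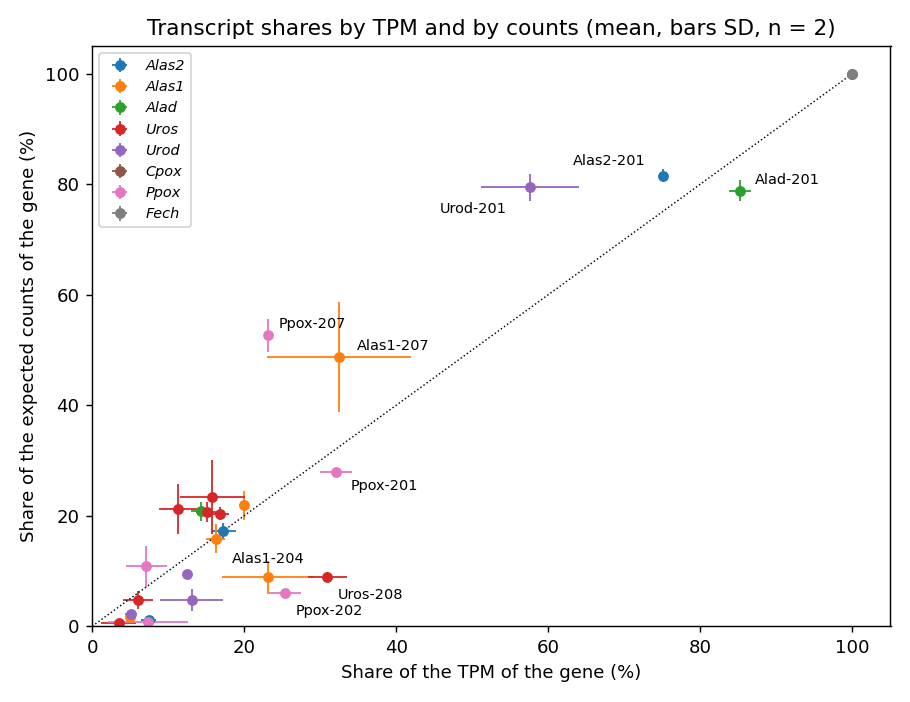
Mean share of TPM (horizontal) against mean share of expected counts (vertical) for the 28 named transcripts, with SD bars over 2 libraries and a dotted line of equality. Short forms such as Uros-208 and Ppox-202 lie below the line, the long Ppox-207 lies far above it, and Cpox and Fech share the point at 100%.

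The order of levels was read from 28 pairs of genes, and 23 pairs were called, that is, had the same direction in both libraries and a mean log2 ratio larger than its SD. How often pairs of other genes pass this rule was not measured. By TPM, Alas2 was above each of the other 7 genes in both libraries, by 1.38-fold over Cpox (log2 0.46 ± 0.10, SD, n = 2), by 0.58 ± 0.09 on the log2 scale over Urod and by 1.59-fold over Fech. It was 4.44-fold above Uros and 5.64-fold above Ppox. Uros exceeded Ppox by 1.27-fold (log2 0.35 ± 0.07), and Ppox exceeded Alas1 by 9.38-fold. On counts not divided by length, Alas2 over Cpox (log2 -0.36), Uros over Ppox (-0.47) and Urod over Fech (-1.46) turned round, and Alas2 over Fech was no longer called (-0.01 ± 0.16). The 5 pairs not called lie within Alad, Urod, Cpox and Fech, whose means ran from 52.2 to 60.1 TPM: Alad against each of the other 3, Cpox against Urod, and Cpox against Fech. Urod over Fech was called at 1.06-fold, with bounds that overlapped in replicate 1 and lay apart in replicate 2. The order therefore read Alas2, then Alad, Urod, Cpox and Fech together, then Uros, Ppox and Alas1. With only the transcripts that carry the main coding sequence, the levels were 76.4 ± 2.95 TPM for Alas2, 60.1 ± 5.59 for Cpox, 52.2 ± 3.94 for Fech, 47.1 ± 14.9 for Alad, 31.8 ± 2.46 for Urod, 8.91 ± 0.397 for Uros, 4.71 ± 0.480 for Ppox and 0.863 ± 0.304 for Alas1 (SD, n = 2 each). Cpox and Fech were quantified with 1 transcript each, so their values equal those of the whole gene by construction. The other genes lose TPM to further forms, so the places of Cpox and Fech in this list are not comparable with theirs.

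Between the replicates 0 of the 8 genes differed 2-fold or more in CPM, where 2.05% of the 9777 genes averaging 100 counts or more did. At 1.5-fold, a threshold added after its values were seen, Alad was the 1 member called, against 7.83% of genes in either direction and 5.01% in its own. Alad had 9635 counts in the deeper replicate 1 and 10061 in replicate 2, a log2 ratio of -0.63 for replicate 1 over replicate 2. Alas1, at 0.58 in the other direction, fell just short of the 1.5-fold threshold. Cpox was at -0.22, Ppox and Fech at 0.13, Urod at -0.11, Alas2 at -0.10 and Uros at -0.02. The median size of the 8 log2 ratios was 0.13, and that of all 9777 genes was 0.16. Of the 10 erythroid markers, 7 were lower in replicate 1 than in replicate 2 by TPM, Gata1 among them. Their differences ran from that of Tal1, at 12.1 and 12.33 TPM with overlapping bounds, to that of the adult beta globin Hbb-bs. Hbb-bs was at 985 TPM in replicate 1 and 1629 TPM in replicate 2. Klf1, Epor and Sptb went the other way. Also lower in replicate 1 were 5 of 6 myeloid markers, all below 1 TPM, and 2 of 4 megakaryocyte markers. The share of all genes lower in replicate 1 by TPM was not measured, so these counts have no background. The part of the erythroid markers in the Alad difference was not tested.

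**Figure D5:**
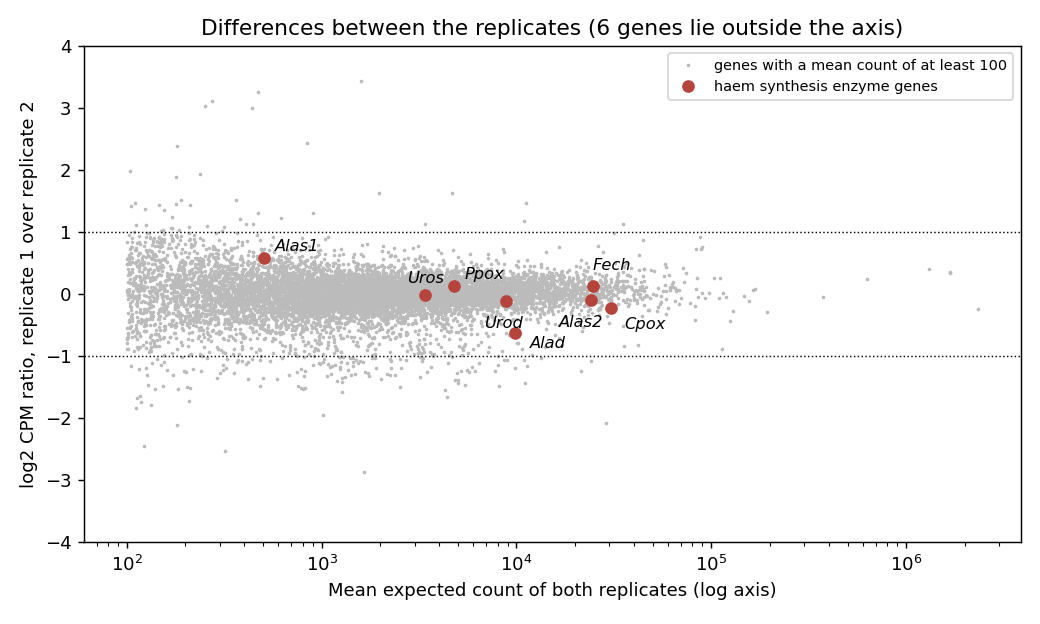
log2 ratio of CPM, replicate 1 over replicate 2, against the mean expected count on a log axis for genes averaging 100 counts or more (grey) and the 8 enzyme genes (red); dotted lines mark 2-fold, and 6 genes lie outside the axis. All 8 enzyme genes lie between the lines, with Alad lowest at -0.63 and Alas1 highest at 0.58.

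Promoter sequences from RefSeq (GRCm38.p6) were found for 10 starts of 7 of the genes, and none was in the table for Fech. They were searched on both strands for the GATA words AGATAA and AGATAG, and also TGATAA and TGATAG, since the line is defined by its GATA1. The starts of Alas2 and Cpox and the downstream start of Uros held such a word, 3 of 10 starts, against 29.8% of all 32851 promoters. The RefSeq starts of Alas1, Alad, Urod and Ppox and the upstream RefSeq start of Uros held none. The annotated starts of Uros-208 and of the Alas1 form that begins farthest upstream lie outside these windows and were not searched. The word CCNCNCCC was in 9 of the 10 starts, or in all 7 genes, and in 49.5% of all promoters. The windows of the Alad starts overlap and share matches, as do those of the Alas1 starts, so the 10 are not separate. A match describes letters in a window and says nothing of binding.

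The windows of Alas2 and Cpox are shown with the letters of the GATA words in capitals, as read on the strand of the gene. That of Alas2 (chrX:150547167-150547374, plus strand) stops at the first annotated transcript base and has its word 86 bases before the RefSeq start. That of Cpox (chr16:58669958-58670207, plus strand) has 2 words that share 1 base, 91 and 86 bases before the start, and another match lies just after the start.
Alas2 promoter: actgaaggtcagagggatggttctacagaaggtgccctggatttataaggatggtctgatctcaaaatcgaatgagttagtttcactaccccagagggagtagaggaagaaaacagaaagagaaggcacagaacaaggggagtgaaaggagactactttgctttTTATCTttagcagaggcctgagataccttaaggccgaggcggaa
Cpox promoter: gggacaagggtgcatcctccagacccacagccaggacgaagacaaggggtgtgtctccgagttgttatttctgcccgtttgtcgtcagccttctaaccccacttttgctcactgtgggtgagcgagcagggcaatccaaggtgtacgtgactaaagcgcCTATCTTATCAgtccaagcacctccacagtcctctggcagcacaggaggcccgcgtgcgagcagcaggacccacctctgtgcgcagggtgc
Few reads were assigned to the downstream start of Uros. Uros-209, the form with the nearest annotated start, begins upstream of that RefSeq start, so that the nearer GATA word lies within the transcript. It had 11.98 counts in replicate 1 and 21.2 in replicate 2, or 0.531 ± 0.332% of the counts of Uros (SD, n = 2). At Alas2, the coding forms that begin after the window shown, with starts 84 bases apart, held 81.5 ± 1.20% and 17.2 ± 1.46% of counts.

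Other genes that serve the pathway were taken as a list of 24. Of these, 21 were at 1 TPM or more in both libraries, against 36.3% of nuclear protein-coding genes. At 10 TPM or more there were 11, against 12.1% of those genes. Their median was 10.4 TPM, below that of the 8 enzymes. Tmem14c, which moves a porphyrin precursor in the mitochondrion, had the highest level at 232 TPM in replicate 1 and 243 TPM in replicate 2. Glrx5, of iron-sulfur cluster assembly, followed at 172 and 169 TPM. All 5 carriers, 4 of 5 genes of iron delivery and all 3 genes of the haem-regulated kinase and haem breakdown reached 1 TPM in both libraries. So did all 5 genes of substrate supply, among them Slc25a38, the mitochondrial glycine carrier, at 22.8 and 28.5 TPM. Of 6 genes that act on the first enzyme, 4 did. Clpx, whose product partly unfolds and activates ALAS, was at 15.3 and 15.6 TPM. The lowest 2 were Nr1d1, at 0.03 and 0.07 TPM, and Ppargc1a, a coactivator that raises Alas1 in fasting liver, which was listed at 0 TPM in both on 0 and 3 counts.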

How the data were processed

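Total RNA of 2 libraries of 1 group was measured, each from its own labelled biological replicate. The authors deposited gene and transcript tables, with assembly mm10 and annotation GENCODE M4 per the text lists beside them; the program, the aligner and any use of strand are not given in the sources used here. Deposited values are expected counts, which need not be whole, TPM with credible bounds of a level that no source used here gives, and FPKM, per the file headers. The percent of the TPM of a gene held by each transcript was deposited as well, per the file headers.

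The 8 members were matched by symbol in GENCODE M21, on the same assembly (GRCm38), through gene identifiers without their version; 42462 of 43346 identifiers matched and 884 did not. Members and lists were chosen with earlier results of these data known. The genes named are the 8 members, their transcripts at 5% or more of TPM in either library, genes that overlap them, and the 2 highest and 2 lowest of a list of other haem genes with Clpx, Slc25a38 and Tmem14c. Erythroid, liver, myeloid, megakaryocyte and lymphoid markers were counted, and 1 liver marker had no match and was not analysed here.

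Levels were compared between genes by TPM only, as log2 ratios within each library. A pair was called where the ratio had the same sign in both libraries and a mean larger than its SD. With 2 values the exact two-sided sign-flip test cannot go below p = 0.5, so no pair was tested. Replicate differences used expected counts rounded to whole numbers, turned into CPM with a prior count of 0.5 after TMM scaling (edgeR 4.0.16, R 4.3.3), over genes averaging 100 counts or more. The step was tested on simulated data with changes larger than 2-fold and an assumed spread. That test does not bear on calls at 1.5-fold or on how often real cultures differ. DESeq2 1.42.0 gave the size factors of an alternative, and other steps used Python 3.11, pandas 2.3.3 and numpy 2.4.6. Library totals were 62080996 and 41051158 expected counts in replicates 1 and 2. The reads carry no molecular identifiers, so the deposited bounds cover the error of counting and of assigning reads, not that of repeating the culture. Promoter sequences came from the RefSeq table of GRCm38.p6 and run from 250 bases before a start to 50 after it. Some promoter sequence of Uros is not reported here.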

Additional observations from a re-analysis of the deposited data

How the results depend on the processing

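On expected counts not divided by length, 3 called pairs turned round: Alas2 over Cpox had a log2 ratio of -0.36 in place of 0.46, Uros over Ppox -0.47 in place of 0.35, and Urod over Fech -1.46 in place of 0.08, because long transcripts gain counts on that scale. Alas2 over Fech lost its call there (-0.01 ± 0.16 in place of 0.67 ± 0.15). The number of called pairs was 26 there and 23 with posterior mean TPM or a pseudocount of 1. FPKM also gave 23. It is TPM times a factor shared by all genes of a library, so ratios within a library could differ only by rounding. Alas2 over Alas1 stayed between 5.03 and 5.96 on the log2 scale in all alternatives, and between 5.49 and 5.96 when either replicate was left out. The count of genes that differed 2-fold between the replicates was 200 of 9777 as reported. It was 987 of 12223 at a mean count of at least 10, and 8531 of 20990 with no filter on low counts. At 1.5-fold, a threshold added after the values of Alad were seen, it was 766 of 9777. The 21 other haem genes at 1 TPM or more fell to 11 at 10 TPM. By share of counts Ppox-207 led in place of Ppox-201 in both libraries, and Uros-208 gave way to Uros-206 in replicate 1 and Uros-201 in replicate 2. Starts were grouped within 100 bases; within 50, the leading start of Alas2 held 75.1% of its TPM in place of 92.3%. The replicate difference of Urod changed sign with the deposited TPM (0.07 in place of -0.11), and neither value reached a threshold. No paired analysis was possible because both libraries belong to 1 group. With 2 libraries, the SD of each level rests on 1 difference, and Alas1, at 314 counts in replicate 2, has the thinnest counts of the 8 genes.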
